A study of Homo sapiens with 6 samples.

Results

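The regions described here carried an H3K27ac anchor in G401 rhabdoid tumour cells both before and 3 days after SMARCB1 was switched back on, and had no ARID1A anchor at day 3. An anchor is a called stretch of DNA that forms an end of a contact in HiChIP, an assay that ligates DNA segments lying together in the nucleus and then pulls down those bound to a protein or carrying a histone mark. The 51970 distinct anchors of all 6 libraries were merged wherever they shared 1 bp or more, which gave 30001 merged regions. Of these, 1193 (3.98%) held an anchor of an H3K27ac library at day 0 and of an H3K27ac library at day 3, and none of either ARID1A library. They made up 17.1% of the 6990 regions called for H3K27ac at both times. The other 5797, called in all 3 groups, are the comparison used below. The 1193 regions were chosen by which anchors were called, so their H3K27ac anchors and their lack of an ARID1A anchor are no findings. A missing anchor says that none was called for ARID1A there, not that ARID1A was absent.

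H3K27ac, acetylation of a lysine in the tail of histone H3, marks active enhancers and promoters, and contacts between such elements are what H3K27ac HiChIP records. SWI/SNF complexes use ATP to slide or evict nucleosomes, and SMARCB1 is a subunit shared by their canonical forms, whose loss defines rhabdoid tumours. ARID1A is a subunit specific to the BAF form of the complex, which is known to act mainly at enhancers away from promoters.

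All groups came from 1 stable G401 line with inducible SMARCB1, grown with tetracycline-free serum. The 2 H3K27ac libraries at day 0 have the genotype SMARCB1 -/- in the labels. The 2 H3K27ac libraries and the 2 ARID1A libraries at day 3 have the genotype SMARCB1 +/+, and re-expression was induced with doxycycline at 1 μg/ml. SMARCB1, doxycycline and culture time therefore differ together between the times, and their parts cannot be told apart. All values come from a single cell line, and no label says that libraries of a group were made from separate cultures.

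The libraries held 253502 to 982141 paired-end tags (PETs), each of which joins a pair of anchors, and the day 0 libraries were the shallowest. PET counts of the 2 libraries of a group differed little beyond counting error. Over loops with 10 or more PETs, chi-square divided by its degrees of freedom was 1.05 for H3K27ac at day 0 (9150 loops, p = 2.0e-04), 1.00 at day 3 (34821 loops, p = 0.43) and 1.015 for ARID1A (18479 loops, p = 0.077). With PETs summed per region it was 1.10, 1.04 and 1.03 over 4085, 12031 and 12176 regions (chi-square p = 4.8e-06, 0.0029 and 0.0094). The libraries of a group therefore differed, if slightly, and each was counted. The p-values below measure the spread between such libraries, which is close to counting error and may be technical.

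The 1193 regions lay close to ARID1A in most cases. The gap to the nearest ARID1A anchor had a median of 15.3 kb, with quartiles of 5.65 and 39.1 kb. It was at most 1 kb for 77 regions (6.45%), 1 to 10 kb for 381 (31.9%), 10 to 100 kb for 602 (50.5%), and more than 100 kb for the remaining 133. The next other region with an ARID1A anchor was a median of 14.6 kb away, against 7.14 kb for regions called in all 3 groups and 12.4 kb for the 2669 regions called for H3K27ac at day 3 only. The next region of the same kind was a median of 351 kb away. The label "lacking ARID1A" thus holds for the called stretch itself and often not for its surroundings.

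At the edge of the rule, the 100 regions nearest to ARID1A, with a gap of 0 to 1330 bp, had a median day 3 width of 6348 bp. Contacts per region are given in CPM, the PETs of a region scaled to a common total of PETs between merged regions per library. These 100 regions had median contacts of 142 and 155 CPM in the day 0 libraries and 105 and 107 CPM at day 3. Just outside, the 100 regions that shared the fewest bases with an ARID1A anchor, 85 to 2342 bp, had medians of 63.4 and 70.5 CPM at day 0 and 68.3 and 64.1 CPM at day 3. An ARID1A anchor was touched without a shared base by 21 of the 1193 regions. The first 3 in genome order lay in 1p36.22 (hg19 chromosome 1, 9323661 to 9334148), 1q24.1 (165736401 to 165740466) and 2q23.3 (chromosome 2, 152682414 to 152686484). The region in 1p36.22 held 96 and 71 PETs before and 277 and 320 after re-expression, and its change did not pass the test described below (log2 fold change 0.16 ± 0.14 (SE), adjusted p = 0.36). The regions farthest from ARID1A, in 5q22.3, 10q11.21, 7q36.2 and 10q11.22, were 2103 to 2267 kb away. They held 1 to 10 PETs in each library, too few to be tested.

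The regions were narrow. Their median called width was 4959 bp at day 0 and 5695 bp at day 3, against 5991 and 8398 bp for regions called in all 3 groups. Of the 1193, 749 (62.8%) were wider at day 3, 381 (31.9%) narrower and 63 equal, and the median ratio of widths was 1.13. A width of at least 2 times that of day 0 was seen in 79 (6.62%). Among regions called in all 3 groups, 75.3% were wider, 15.1% at least 2 times wider, and the median ratio was 1.27. Anchors appear to have been called once per group, so widths have no replicates and these differences were not tested.

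Contacts of these regions took a smaller share of the library at day 3. A PET with at least 1 end in them made up 21.0% and 20.9% of PETs in the day 0 libraries and 14.92% and 14.95% at day 3. For regions called in all 3 groups the share was 93.0% ± 0.155 at day 0 and 85.4% ± 0.142 at day 3 (SD, n = 2), so both kinds took less. The median region had 61.4 and 63.7 CPM at day 0 and 56.3 and 58.7 CPM at day 3, a difference of -5.10 CPM where the SD was 1.59 and 1.68 CPM (n = 2 each). Regions called in all 3 groups had medians of 123 CPM in both day 0 libraries and 125 and 126 CPM at day 3. Each of the 1193 regions had an average of 7.78 and 7.29 partner regions at day 0 and 17.3 in both day 3 libraries. With every library thinned to 253502 PETs, the averages were 7.23 ± 0.0865 and 9.17 ± 0.0895 (SD, n = 2), and those of regions called in all 3 groups 9.48 ± 0.104 and 13.4 ± 0.141. Thinning drew on PETs of the deposited loops and anchors were not called anew, so these averages are not fully matched for depth. The median span of contacts of the 1193 regions, weighted by PETs, was 91.6 and 96.7 kb at day 0 and 110.4 and 107.6 kb at day 3. It was 105.4 ± 1.40 and 116.8 ± 1.73 kb for regions called in all 3 groups. The times did not overlap in any of these values of the 1193 regions, and the exact two-sided permutation test over libraries gave p = 0.33 for each, the smallest value that 2 libraries against 2 allow.

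Contacts differed with called width. Among regions 3 to 5 kb wide at day 0, the medians were 46.1 and 45.5 CPM for the 587 regions without ARID1A and 65.3 and 68.2 CPM for the 1839 called in all 3 groups. Among those 5 to 8 kb wide they were 65.3 and 68.2 CPM against 103.7 and 100.1 CPM. Regions of 15 to 30 kb stood the other way round. The 36 without ARID1A had medians of 1141 and 1089 CPM at day 0, against 636 and 626 CPM for the 524 called in all 3 groups. At day 3 the 57 without ARID1A in that class had 594 and 570.3 CPM, against 340.0 and 337 CPM. In both libraries of each time, the order between the kinds of region was the same within a width class.

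**Figure D1:**
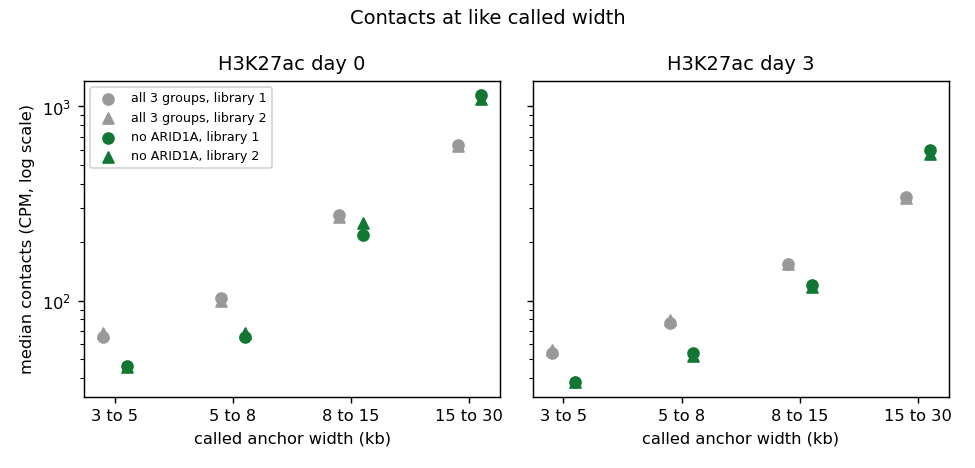
Median H3K27ac contacts per region (CPM, log scale) by called width in kb, for regions without an ARID1A anchor (green) and regions called in all 3 groups (grey); circles and triangles are the 2 libraries of each time. Green points lie below grey ones up to 15 kb and above them from 15 to 30 kb, at 1141 and 1089 against 636 and 626 CPM at day 0.

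A few broad regions held much of the contacts. At both times 45 of the 1193 (3.77%) were called over 20 kb or more. These 45 regions, in 33 cytobands, held 38.0% and 36.4% of the PET ends of the whole set at day 0 and 30.6% and 30.8% at day 3. Their median contacts were 1889 and 1683 CPM at day 0 and 1025 and 1041 CPM at day 3, while the 400 broad regions called in all 3 groups had 949 and 960 CPM at day 0 and 733 and 728 CPM at day 3. Regions without ARID1A made up 12 of the 50 regions with the most contacts among those called at both times in each day 0 library, and 11 of 50 in each day 3 library, where they were 17.1% of all regions called at both times. Among the 500 with the most contacts their share was 12% to 13.2% in the 4 libraries, below that base. The broad regions were themselves near ARID1A, with a median gap of 13.3 kb.

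The region with the most contacts summed as CPM over the 4 H3K27ac libraries lay in 14q24.1 (chromosome 14, 68568464 to 68617187). It spanned 45363 bp before and 48723 bp after re-expression, with 4478 and 4335 CPM at day 0 and 2627 and 2508 CPM at day 3. The region in 7p15.2 (chromosome 7, 25881214 to 25912056) had 3940 and 4021 CPM at day 0 and 2436 and 2510 CPM at day 3. The one in 7p15.3 (25375101 to 25436122), 58286 bp wide at day 0, had 4290 and 3912 CPM and then 2308 and 2345 CPM. In all 3 the day 3 libraries lay below the day 0 libraries, without overlap. At day 0 alone, the region in 8q24.21 described further on had more contacts than any of these, with 5088 and 4931 CPM. A broad region in 20q13.13 (chromosome 20, 49337013 to 49387775) was among the 4 widest at day 0, with 49517 bp and 49835 bp at day 3. It had 2830 and 2638 CPM at day 0 and 2062 and 1993 CPM at day 3.

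The next comparison asked which of these regions gained or lost contacts between day 0 and day 3. PETs of loops joining regions that were both called at both times were summed per region and tested with edgeR's quasi-likelihood test over all 6251 such regions with 10 or more PETs in at least 2 libraries. The rule used no PET count, and every region tested had been called at both times. Library sizes were the PETs within this set, scaled by TMM, so a fold is relative to the set. At day 3 many PETs went to regions called only then and stood outside it. The median log2 fold of all regions tested was -0.01, and -0.62 with the library totals instead. The change of scale shifts the fold of every region by nearly that amount, so a smaller rise is a rise within the set only. A region was called where the Benjamini-Hochberg adjusted p was under 0.05.

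Of the 1193 regions, 938 could be tested and 255 were under the minimum. Contacts were higher at day 3 in 95 (10.1%), where 20.7% of all regions tested were higher. They were lower in 203 (21.6%), where 18.8% of all regions tested were lower. The median log2 fold of the 938 was -0.15, with quartiles of -0.51 and 0.26, and that of the 5313 regions called in all 3 groups was 0.02, with 22.6% higher and 18.3% lower. With library totals, 17 were higher and 528 lower, against 6.29% and 55.0% of all regions tested, and the median was -0.76. Among the 555 regions tested whose contacts joined regions of like width at both times, within 1.5 times, 24 (4.32%) were higher and 47 (8.47%) lower, against 6.74% and 7.57% of all such regions. DESeq2 called 42 higher and 89 lower, against 10.6% and 8.35% of all regions tested. With the libraries thinned to the smallest, 671 were tested, of which 62 (9.24%) were higher and 118 (17.6%) lower. All regions tested in that fit had 17.5% and 13.7%. These regions stood below the background for higher contacts in each of these settings. Without library 1 or 2 of day 3, 123 (15.5%) and 130 (16.5%) were lower, against 14.0% and 14.1% of all regions tested in those fits. Without library 1 or 2 of day 0, 149 (16.1%) and 141 (15.1%) were lower, against 13.4% and 13.6%. With only loops at a deposited value of 0.01 or less, 78 of 424 (18.4%) were higher and 69 (16.3%) lower, against 25.1% and 13.6% of all, and the median log2 fold was 0.16 against 0.48. The balance of higher and lower calls thus turned in that setting.

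**Figure D2:**
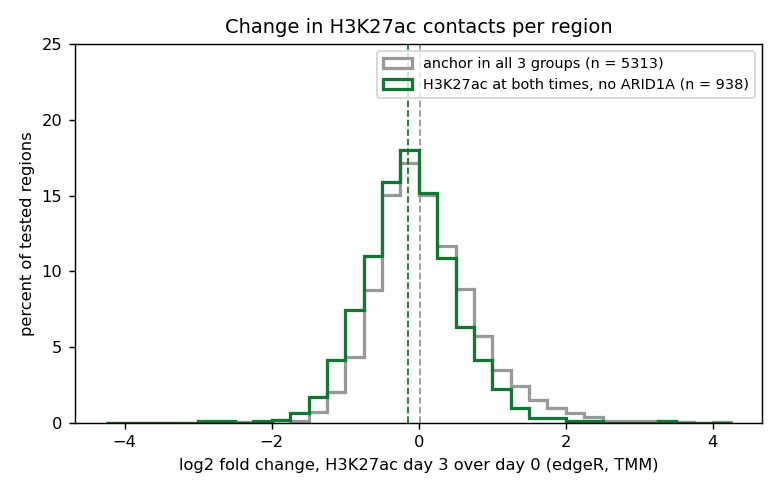
Distribution of log2 fold changes in H3K27ac contacts per region, day 3 over day 0 (edgeR with TMM), as a percentage of the regions tested; green is the 938 regions without an ARID1A anchor, grey the 5313 called in all 3 groups, and dashed lines are medians. The green median lies at -0.15 and the grey at 0.02, and the distributions overlap over most of their range.

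Called width moved with the fold. Across the 938 regions tested, Spearman's correlation between the fold and the ratio of widths was 0.61, and across the 5313 called in all 3 groups 0.69. Both quantities come from the same libraries, so this is a description. Of the 458 regions within 10 kb of ARID1A, 413 were tested, of which 54 (13.1%) were higher and 96 (23.2%) lower. Of the 602 at 10 to 100 kb, 479 were tested, with 40 (8.35%) higher and 103 (21.5%) lower. Of the 133 beyond 100 kb, 46 were tested, with 1 higher and 4 lower. These far regions had median contacts of only 12.6 to 15.4 CPM in the 4 libraries, against 90.7 to 104.6 CPM within 10 kb.

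Among the regions with higher contacts, the one with the smallest p lay in 2p16.1 (chromosome 2, 58778232 to 58853761). It held 109 and 122 PETs before and 2006 and 2053 after re-expression, or 419 and 555 CPM against 2304 and 2230 CPM. Counting only loops of the set, contacts rose from 487 ± 96.4 to 1533 ± 22.6 CPM (SD, n = 2), a log2 fold change of 2.29 ± 0.09 (SE; edgeR adjusted p = 7.54e-66). It spanned 21056 bp before and 74711 bp after re-expression, with an ARID1A anchor 0.775 kb away. Its partners numbered 7 and 8 at day 0 and 20 in both day 3 libraries. This was the widest of the 1193 regions at day 3.

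The region in 10q26.3 (chromosome 10, 134201960 to 134215297) lay farther from ARID1A, at 41.8 kb. It had 119 and 132 CPM at day 0 and 288 and 296 CPM at day 3, and rose by 1.88 ± 0.18 on the log2 scale. Its partners were 6 in both day 0 libraries and 9 and 10 at day 3. In 17q21.31 (chromosome 17, 43298851 to 43308048), a region that touched an ARID1A anchor had 142 and 209 CPM at day 0 and 334 and 294 CPM at day 3, with a log2 fold change of 1.33 ± 0.16. In 9q31.3 (chromosome 9), the neighbours at 114692397 to 114713782 and 114716750 to 114745605 rose by 0.91 ± 0.11 and 0.73 ± 0.09. The latter went from 833 and 805 CPM to 976 and 987 CPM, and with library totals its log2 fold was 0.11 (adjusted p = 0.27) and no longer a call.

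The other regions named by the same rule were 20q13.12 (chromosome 20, 43342046 to 43364944), 20q13.13 (49327799 to 49336176) and 12q24.21 (chromosome 12, 116692847 to 116721194). They rose by 0.95 ± 0.12, 0.86 ± 0.11 and 0.88 ± 0.12. With library totals the folds of 20q13.13 and 12q24.21 were 0.24 and 0.26 (adjusted p = 0.065 and 0.063), which ended both calls. Each of the 8 named regions with higher contacts widened, 1.94 to 3.55 times. The part of width in these folds was not tested. The region in 20q13.13 lies next to the broad one at 49337013 named above, without touching it. That broad region had a fold of 0.14 ± 0.06 (adjusted p = 0.047) within the set and -0.48 with library totals (adjusted p = 7.11e-11).

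Among the regions with lower contacts, the one with the smallest p was in 8q24.21 (chromosome 8, 127383574 to 127450707), the widest of the set at day 0. It spanned 63419 bp before and 65903 bp after re-expression. Its contacts were those 5088 and 4931 CPM at day 0 and 1823 and 1786 CPM at day 3, and the log2 fold change was -1.09 ± 0.05 (adjusted p = 1.28e-50). A single loop carried 861 of its 1325 and 697 of its 1084 PETs at day 0, and 368 and 398 PETs at day 3. That loop reaches the region at 127454430 to 127526119, which is called in all 3 groups and narrowed from 58668 to 15165 bp. With only partners of like width at both times, which leaves this loop out, the log2 fold of the 8q24.21 region was 0.01 (adjusted p = 0.95). Its partners numbered 11 in both day 0 libraries and 44 and 42 in the deeper day 3 libraries.

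Along 1p21.1 (chromosome 1, 103609527 to 103651492), a region 84.0 kb from ARID1A narrowed from 37791 to 20391 bp. It had 2558 and 2093 CPM at day 0 and 348 and 342 CPM at day 3. Many of its day 0 contacts reached regions not called at day 3, since only 306 of 666 and 217 of 460 PETs joined regions called at both times. Within those, the log2 fold change was -1.27 ± 0.10. Other narrowing regions with lower contacts were 17q25.3 (chromosome 17, 75363848 to 75386596), from 21150 to 4527 bp, and 19q13.42 (chromosome 19, 56180619 to 56190055), from 9436 to 5857 bp. Their log2 fold changes were -2.0 ± 0.19 and -1.68 ± 0.16. In 3p21.31 (chromosome 3, 49052547 to 49062405), a region that went from 9858 to 5175 bp had a log2 fold change of -1.52 ± 0.15.

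Lower contacts without a change in width were seen in 15q14. The regions at 35715293 to 35747696, 35760420 to 35776624 and 35781883 to 35816575 of chromosome 15 had width ratios of 1.01, 0.975 and 1.03. The first had 3030 and 2848 CPM at day 0 and 1262 and 1382 CPM at day 3. Their log2 fold changes were -0.64 ± 0.06, -0.79 ± 0.08 and -0.64 ± 0.07, with adjusted p of 1.46e-16 or less. The libraries of the times did not overlap in any of the 3.

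**Figure D3:**
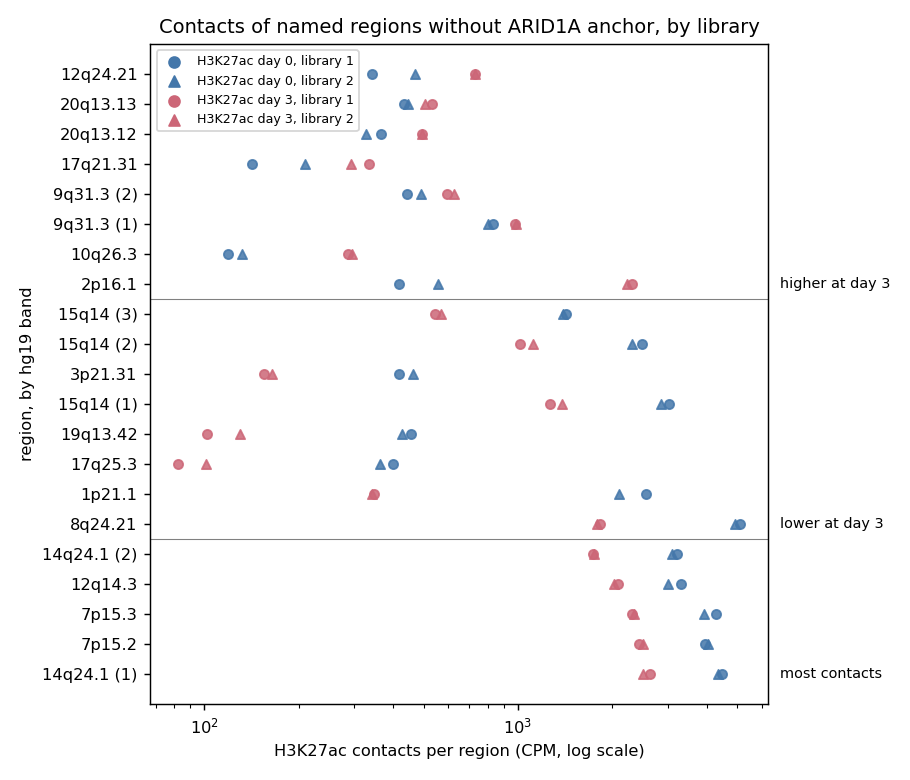
H3K27ac contacts per region (CPM, log scale) of the named regions without an ARID1A anchor, by hg19 band; blue is day 0, red day 3, and circles and triangles are the 2 libraries of a time. In the lower panel the 5 regions with the most contacts and in the middle panel the 8 named as lower have day 3 points left of their day 0 points, and the 8 named as higher have them to the right, with 2p16.1 farthest apart at 419 and 555 against 2304 and 2230 CPM.

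A scale set by the whole library and one set within the tested set can differ in direction, as 12q14.3 (chromosome 12, 65683050 to 65739919) shows. Over all its loops it had 3306 and 3007 CPM at day 0 and 2087 and 2024 CPM at day 3. Over loops of the set it had 1731 ± 126 and 1699 ± 33.9 CPM (SD, n = 2). The log2 fold was 0.59 ± 0.07 with TMM within the set (adjusted p = 6.97e-15) and -0.03 with library totals (adjusted p = 0.68). Only its share of contacts within the set was therefore higher. For the 14q24.1, 7p15.2 and 7p15.3 regions the folds were -0.18 ± 0.05, -0.15 ± 0.05 and -0.24 ± 0.05 within the set and -0.80, -0.77 and -0.86 with library totals.

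Of the 45 regions broad at both times, 27 had lower and 6 higher contacts, with a median log2 fold of -0.24 and a median width ratio of 1.11. Of the 400 broad regions called in all 3 groups, 396 were tested, of which 127 were lower and 96 higher, with a median of -0.07. The 18 regions that were broad at day 3 only held 10 (55.6%) with higher and 3 (16.7%) with lower contacts, and the 378 such regions tested among those called in all 3 groups held 243 (64.3%) and 26 (6.88%). The 1126 regions under 20 kb at both times had 79 higher (9.07%) and 170 lower (19.5%) of 871 tested, with a median of -0.14. The like regions called in all 3 groups had 860 higher (19.0%) and 804 lower (17.8%) of 4518. The broad regions with higher contacts included 5q14.2 (chromosome 5, 82257359 to 82304529), chosen here after its value was seen, with 472 and 519 CPM at day 0 and 549 and 553 CPM at day 3 (log2 fold 0.67 ± 0.11 within the set).

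Single loops were tested in the same way over the 16642 loops between regions called at both times with 4 or more PETs in at least 2 libraries. Of these, 3461 had an end in a region without ARID1A. Among the 3461, 171 (4.94%) were higher at day 3, where 8.35% of all loops tested were higher, and 301 (8.70%) were lower, where 6.70% of all were lower. Their median log2 fold was -0.09 and that of all loops 0.06. With library totals 62 were higher and 835 lower, against 3.47% and 21.3% of all loops tested. DESeq2 called 39 higher and 64 lower, against 1.86% and 1.65% of all. With thinned libraries 1853 such loops were tested, of which 15 (0.809%) were higher and 13 (0.702%) lower, against 1.23% and 0.486% of all. With like widths at both ends 1572 were tested, of which 7 (0.445%) were higher and 20 (1.27%) lower, against 1.24% and 1.18%. Of the 288 loops with both ends in such regions, 20 were higher and 38 lower, with a median of -0.23. The counts depend on which libraries enter: without one of the day 0 libraries, 63 or 75 loops were higher and 123 or 159 lower, and without one of the day 3 libraries, 112 were higher either way and 124 or 120 lower. In those fits 1.91% to 4.67% were higher and 3.72% to 5.14% lower, against 3.33% to 7.73% and 3.17% to 4.2% of all loops tested.

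The 4 named loops with higher contacts all reached regions called in all 3 groups that had widened. The one with the smallest p joined 2p16.1 to the region next to it, at 58854536 to 58895687. It held 3 and 5 PETs before and 471 and 495 after re-expression (5.58 ± 0.25, edgeR adjusted p = 1.93e-102). That neighbour went from 5785 to 38522 bp. From 12q14.3 the loop to 65976658 to 66059233 held 37 and 32 PETs before and 475 and 503 after re-expression, a log2 fold change of 2.51 ± 0.16 (edgeR adjusted p = 8.13e-55). Its far end, 306.5 kb away between centres, went from 13651 to 75866 bp. From 2p16.1 another loop, to 58980900 to 59019990, held 7 and 11 PETs and then 146 and 170 (2.81 ± 0.26), and its far end went from 14462 to 31603 bp. From 8q24.21 a loop to 127612115 to 127644930 held 10 and 12 PETs and then 147 and 149 (2.43 ± 0.26), with a far end that went from 5120 to 29007 bp. The 8q24.21 region thus had both a loop that fell and one that rose, each with the partner's width.

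The 4 named loops with lower contacts all reached partners that had narrowed. In 14q24.1 the regions at 68568464 and 68621642 both had a loop to 68704671 to 68738466, which went from 20357 to 3463 bp. The loop from 68621642 held 102 and 76 PETs before and 9 and 12 after re-expression, a log2 fold change of -4.37 ± 0.25 (adjusted p = 2.43e-66). Between those same 2 regions, which kept their widths, the loop held 301 and 249 PETs before and 623 and 623 after re-expression, and its fold did not pass the test (-0.13 ± 0.09, adjusted p = 0.37). In 3q13.31 (chromosome 3) the contact of 115809815 with 115864437 fell, with 152 and 120 PETs before and 92 and 119 after (-1.68 ± 0.14), and its far end from 44297 to 27203 bp.

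The 3 loops with the most PETs between 2 regions without ARID1A included that one. The others were in 9q31.3, from 114767643 to 114818497, with 369 and 334 PETs before and 553 and 546 after re-expression, and in 4p15.2 (chromosome 4), from 26210205 to 26272981, with 315 and 251 before and 449 and 514 after. Their log2 fold changes were -0.67 ± 0.09 and -0.55 ± 0.10 (adjusted p = 2.12e-11 and 6.67e-07). In CPM the 9q31.3 loop went from 1417 and 1519 to 635 and 593.

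Most of these regions stood alone between neighbouring ARID1A anchors, but some shared such a stretch. Leaving out chromosome Y, 1056 stretches between neighbouring ARID1A anchors held at least 1 of the regions, of which 961 held 1, 72 held 2 and 23 held 3 or more. The 23 stretches held 74 regions, of which 59 were tested, with 12 higher (20.3%) and 27 lower (45.8%), against 20.7% and 18.8% of all regions tested. The share higher is that of the background. In 15q14, 4 regions lay in a stretch of 171 kb without an ARID1A anchor. Summed over the 4, with a PET between them counted at each end, they held 1861 and 1486 PETs before and 2524 and 2901 after re-expression, or 7147 and 6760 CPM against 2899 and 3151 CPM. All 4 fell, by 0.64 to 0.94 on the log2 scale. The region at 35833831 to 35842152 fell the most of the 4 and was called over 5576 and 6865 bp.

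In 5q13.3 (chromosome 5, 75950730 to 76044962), 4 regions filled most of a stretch of 109 kb and summed to 6025 and 5459 CPM at day 0 and 2792 and 2641 CPM at day 3. The first, widened from 16240 to 26782 bp, had a fold of 0.06 (adjusted p = 0.66), and the other 3 fell by 0.65, 0.51 and 0.76. In 1p21.1 the 4 regions of a stretch of 471 kb summed to 5826 and 4708 CPM and then 1191 and 1220 CPM. Of these, 3 fell, and the region at 103457122 to 103471440 had a fold of -0.01 (adjusted p = 0.98). In 3q13.31 all 3 regions of a stretch of 118.8 kb fell, by 0.44, 0.66 and 0.75.

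Other stretches held regions that moved apart. In 9q31.3 the 3 regions from 114669302 to 114745605 all rose, by 0.95, 0.91 and 0.73, and all were about 2 times wider at day 3. The 2 broad regions beyond the next ARID1A anchor, at 114767643 and 114818497, had folds of -0.18 and -0.40 in the same band, both lower (adjusted p = 0.0093 and 2.71e-07). In 15q22.2 (chromosome 15) the regions at 63094806 and 63111157 rose by 0.46 and 0.58, while that at 63131328, 21260 bp and then 20408 bp wide, had a fold of -0.14 (adjusted p = 0.057). In 14q24.1 the regions at 68568464 and 68621642 fell slightly and the third, at 68656620 to 68669362, widened from 6280 to 12742 bp and rose by 0.44. Within these 3 stretches, the regions that rose had widened by 1.52 to 2.28 times, and the others had width ratios of 0.960 to 1.15. The rises in 15q22.2 and 14q24.1 are smaller than the shift between scales and hold within the set only.

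The partners of these regions mostly carried ARID1A, as did most regions called for H3K27ac at each time. This majority is therefore no measure of a preference for such partners. Of the PET ends of the 1193 regions, 71.7% and 72.2% at day 0 and 73.6% and 73.9% at day 3 had a partner with an ARID1A anchor. For regions called in all 3 groups the shares were 86.0% in both day 0 libraries and 86.7% and 86.8% at day 3, higher in all 4 libraries. The difference between times was 1.84 percentage points (exact permutation p = 0.33 with n = 2 per group, the smallest possible). It turned around without the regions called over 20 kb or more at either time, to 79.6% ± 0.0151 at day 0 and 78.5% ± 0.298 at day 3 (SD, n = 2). ARID1A was measured at day 3 only, so the day 0 shares describe partners by what they carried later.

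Regions without ARID1A also met each other more than regions called in all 3 groups met them. Among PET ends whose partner was called at both times, the partner was another region without ARID1A in 25.7% and 25.2% at day 0 and 24.6% and 24.5% at day 3. From regions called in all 3 groups, the shares were 11.09% and 11.04% at day 0 and 9.89% and 9.86% at day 3. At day 3, 16.7% and 16.8% of the PET ends of regions without ARID1A went to regions called for ARID1A and for H3K27ac at day 3 alone. Another 7.75% and 7.54% went to regions called for H3K27ac at day 3 only. The latter share was 6.0% and 5.89% from regions called in all 3 groups.

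**Figure D4:**
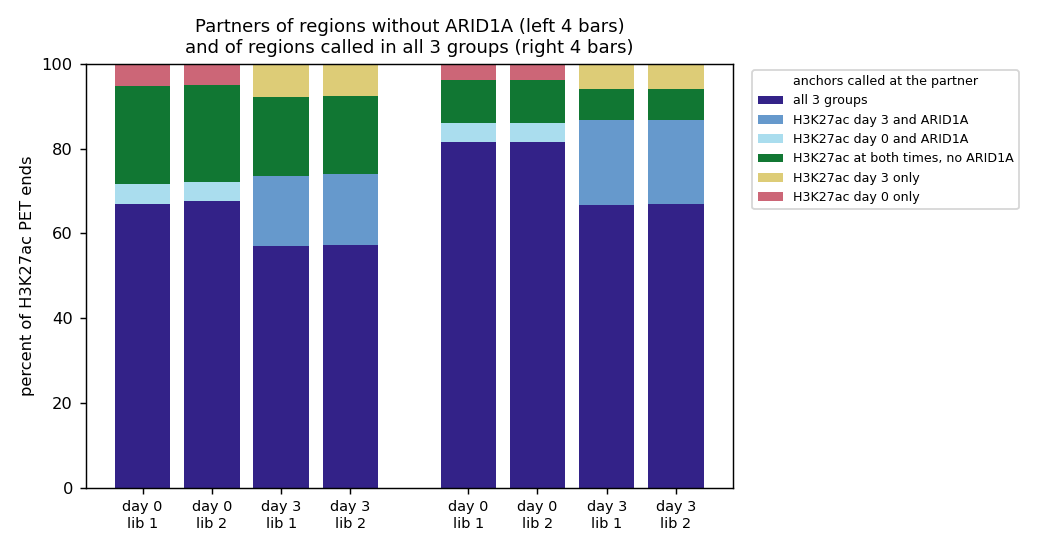
Partners of regions without an ARID1A anchor (left 4 bars) and of regions called in all 3 groups (right 4 bars), as the percentage of H3K27ac PET ends in each library, coloured by the anchors called at the partner. Partners called in all 3 groups make up 66.9% and 67.6% of the left bars at day 0 and 57.0% and 57.2% at day 3, against 81.5%, 81.6%, 66.7% and 67.0% on the right.

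How often such regions met was set against how many of them lay within reach. Of the regions called at both times 5 to 50 kb from a region without ARID1A, 27.8% were of the same kind, and they took 43.3% to 43.7% of the PET ends over that distance in the 4 libraries. At 50 to 200 kb the shares were 18.5% of regions and 19.2% to 20% of PET ends. At 200 to 2000 kb they were 17.8% of regions and 11.6% to 13.1% of PET ends. Seen from regions called in all 3 groups, regions without ARID1A took fewer PET ends than their share of regions at every distance, for example 8.72% to 9.96% against 11.96% at 5 to 50 kb. Broad regions weigh in these shares. The starting regions without ARID1A were then limited to those under 20 kb at both times, with partners of any width. The shares at 5 to 50 kb became 23.5% of regions and 26.7% to 27.2% of PET ends. At 50 to 200 kb they were 17.7% of regions and 12.2% to 13.4% of PET ends. That is the reverse of the order with broad starting regions included.

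**Figure D5:**
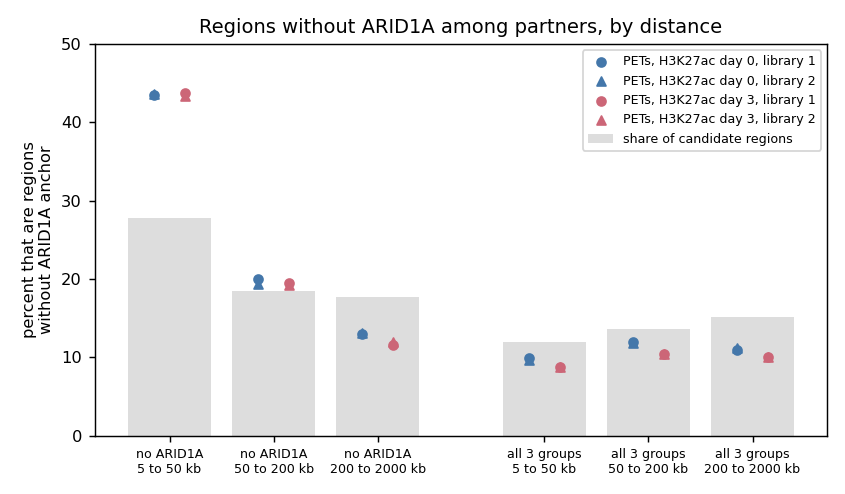
Share of partners that are regions without an ARID1A anchor, by distance and by the kind of region the contact starts from; bars are the percentage of regions within that distance and points the percentage of H3K27ac PET ends in each of the 4 libraries. From regions without ARID1A the points stand at 43.3% to 43.7% above a bar of 27.8% at 5 to 50 kb and fall below the bar at 200 to 2000 kb, and from regions called in all 3 groups they stay below the bars.

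The regions were spread over all chromosomes. Among regions called at both times they made up 13.6% on chromosome 1 (103 of 760), and 24.1% on chromosome 16 (70 of 290), 22.2% on chromosome 20 (43 of 194), 26.4% on chromosome 21 (19 of 72) and 26.2% on chromosome X (17 of 65). They lay in 469 of the 666 cytobands with a region called at both times. In 5 bands there were 10 or more. These were 16p13.3 (17 of 50 regions), 17q25.3 (14 of 43), 16q22.1 (13 of 36), 3p21.31 (13 of 47) and 22q13.2 (10 of 25). These bands were picked by their counts, and no test was made.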

How the data were processed

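HiChIP libraries of the G401 line were read from the loop lists the authors deposited. The submitters' processing notes name HiC-Pro, Bowtie2 and hg19. Which programs called anchors and loops is not given in the sources used here. A deposited list gives a pair of anchors, a raw count of PETs (paired-end tags) and a value from 0 to 1. That deposited value may be a p-value or q-value, which no source states, and it served only as a threshold of 0.01 in alternatives. Coordinates are printed as deposited, with the start of counting (0 or 1) unstated.

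Anchors of all libraries were merged by 1 bp of overlap and PETs summed per pair of merged regions (Python 3.11.15, pandas 2.3.3). Loops inside a merged region were left out, and chromosome Y was left out of counts by band, chromosome and stretch. Bands are those of circlize 0.4.16. Counts were fitted in edgeR 4.0.16 (R 4.3.3) by quasi-likelihood (TMM, group as the only term; 10 or more PETs for regions and 4 or more for loops in at least 2 of the 4 H3K27ac libraries; Benjamini-Hochberg adjusted p under 0.05 over the whole table), after a test on simulated data. Values per library were compared with exact two-sided permutation tests over all arrangements of libraries (numpy 2.4.6), and Spearman's correlation was taken with scipy 1.17.1.

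Named are, among calls with no overlap in CPM between the times, the 8 regions and 4 loops with the smallest p in each direction, and also the 6 regions with the most contacts, the 4 widest at each time, the 4 farthest from and 3 nearest to ARID1A, and the 3 loops with the most PETs between 2 members. Members of stretches with 3 or more regions were named after their values were seen. The regions and lists were chosen with earlier results of these data known. Alternatives were library totals, DESeq2 1.42.0, other minimums, thinning, the deposited value, like widths, a replicate block and leaving out each library.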

Additional observations from a re-analysis of the deposited data

How the results depend on the processing

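For regions, the count higher at day 3 was 95 and the count lower 203. They were 17 and 528 with library totals, 42 and 89 with DESeq2, and 62 and 118 with libraries thinned to 253502 PETs. With only regions of like width they were 24 and 47, and with all loops of a region counted 178 and 284. In that last setting 26.7% were lower, against 27.1% of all regions tested, so no excess of lower calls was left. The share higher, 16.7%, was still below that of all regions tested. With loops at a deposited value of 0.01 or less, 78 were higher and 69 lower. Leaving out a library gave 66 to 75 higher and 123 to 149 lower. For loops, the counts were 171 higher and 301 lower. They were 62 and 835 with library totals, 39 and 64 with DESeq2, 15 and 13 thinned, and 7 and 20 with like widths. At a deposited value of 0.01 or less they were 536 (34.9%) and 72 (4.69%), against 39.3% and 3.37% of all loops tested. With no minimum they were 194 (1.36%) and 89 (0.625%), against 2.79% and 0.660% of all. There the median log2 fold was 0.39 in place of -0.09. Thinned, at a deposited value of 0.01 or less and with no minimum, the higher calls outnumbered the lower, as they did among all loops tested. Leaving out a library gave 63 to 112 higher and 120 to 159 lower. DESeq2 gave no adjusted p for 250 of the 938 regions. Fewer PETs or regions enter the thinned and like-width settings by construction, and the cause of the other shifts was not tested. Requiring no ARID1A anchor within 10 kb left 735 of the 1193 regions, and leaving out a library gave 1161 to 1244.

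The share of PET ends with an ARID1A partner changed by 1.84 percentage points, and by -1.08 without regions of 20 kb or more, a setting chosen after the data were examined. The 8q24.21 region had a log2 fold of 0.0101 with partners of like width. Of 196 values of named regions under the alternatives 190 kept direction and side of the threshold, and of 88 of named loops 87 did. These were named for the smallest p in the same libraries, so such agreement was largely built in. With like widths, 3 named regions kept direction and side and 1 was reversed. The other named regions, among them all 8 with higher contacts, and the named loops did not enter that setting. The number of partners and the span kept their direction in every setting run. The share of PET ends with partners called in all 3 groups changed by -10.2 points, and by 1.52 with a deposited value of 0.01 or less. In that setting the median CPM was 0 at day 0, so no ratio could be given, and 14.4 at day 3. Elsewhere the ratio of median CPM lay between 0.90 and 0.94.

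With the replicate number as a block, 95 regions were higher and 200 lower, and 155 and 273 loops. Deviations of same-numbered libraries from their group means had a correlation of 0.0078 over 6251 regions, so the numbers were not taken as pairs. Depth limits far and narrow regions most: 255 of the 1193 were not tested. Sequence windows and gene lists were not run, as no hg19 genome or annotation was used here.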

Other observations

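ARID1A loops passed over many of these regions. For 1131 of them the nearest ARID1A regions on both sides were known within 2000 kb of each other, and an ARID1A loop joined that flanking pair in 51.0% and 52.0% of cases in the 2 ARID1A libraries. For all neighbouring pairs of ARID1A regions within 2000 kb, which were closer together, the shares were higher, at 73.7% and 74.6%. Around regions called for H3K27ac at day 3 only they were 52.6% and 54.0%. Among flanking pairs of the regions described here 50 to 200 kb apart, the shares were 55.6% and 54.9%, against 53.7% and 54.5% for all neighbouring pairs of ARID1A regions at that distance. Among pairs 10 to 50 kb apart they were 71.8% and 75.6%, against 86.3% and 87.0%. The pairs around the regions are longer within each class (median 34.7 kb against 23.1 kb in the latter), and the part of distance in this difference was not tested.

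A small group of regions had no contact with an ARID1A partner. Among the 1163 and 1161 regions with a loop at day 0, 46 (3.96%) and 38 (3.27%) had none. Among the 1190 and 1191 at day 3, 15 (1.26%) and 19 (1.60%) had none. Of regions called in all 3 groups, 5760 and 5727 had a loop at day 0, and 55 (0.955%) and 66 (1.15%) of these had none. At day 3 they were 6 (0.104%) and 5 (0.0863%) of 5796 in each library. Depth differed between the times and median contacts between the kinds of region, and the part of either in these counts was not tested.

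Following the regions along each chromosome through all regions called for H3K27ac at both times, 678 of 1193 (56.8%) had no neighbour of the same kind, and 56 runs held 3 or more in a row. The longest held 7 in 11p15.5, over 4540 kb, and 6 in 7q36.1, over 4480 kb. Runs of 5 ranged from 170 kb in 9q31.3 and 291 kb in 16p13.3 to 6778 kb in 19p12.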
